A study of Mus musculus with 14 samples.

Results

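The 6 genes examined here are widely used to normalize expression measurements: Hprt, Actb, Tbp, Ppia, Ywhaz and Polr2a. They were taken by symbol, 6 of the 46983 genes in each of the 2 deposited tables, and were chosen by name with their measured changes in these tables already known, so the fold changes and p-values below describe them and test nothing about the choice. All 6 were found once in both tables, and all 6 passed the authors' filter on low means in both. The changes of 5 of them were small in both systems, between -0.11 and 0.38 on the log2 scale in the authors' deposited table. Hprt was the exception: its fitted level was close between genotypes in corpus callosum and 9.19-fold higher in cultured cells labelled Qk-KO than in cultured cells labelled WT.

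A reference gene is a transcript against whose level other transcripts are expressed, on the premise that it is the same in every sample compared. Hprt encodes hypoxanthine-guanine phosphoribosyltransferase, an X-linked enzyme that returns the bases hypoxanthine and guanine to the nucleotide pool, and its loss in humans causes Lesch-Nyhan disease, a disorder of the nervous system. Actb encodes cytoplasmic beta-actin, and Ppia encodes cyclophilin A, a peptidylprolyl isomerase that binds cyclosporin. Ywhaz encodes the zeta form of the 14-3-3 proteins, adaptors that bind phosphorylated partners. Tbp encodes the TATA-binding protein, a subunit of the general transcription factor TFIID, and Polr2a encodes the largest subunit of RNA polymerase II.

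The libraries came from mouse corpus callosum (4 labelled WT, 4 labelled Qk-KO) and from oligodendrocytes derived in culture from neural stem cells (3 and 3). The callosum mice, hybrids of FvB and C57BL6, carried Plp-CreERT2, a tamoxifen-inducible Cre whose Plp promoter is active in the oligodendrocyte lineage. The WT group was Plp-CreERT2;QKLoxP/+ with 1 floxed Qk copy and the Qk-KO group Plp-CreERT2;QKLoxP/LoxP, and both received tamoxifen at 8 weeks of age and were sampled 4 days later. The tissue also holds cell types outside the lineage in which this Cre is driven. The cultures stood at passages 7, 12 and 13 with 1 library of each genotype at each passage, in medium holding IGF-1 at 100 ng/ml and T3 at 50 ng/ml. The descriptions of all cultures labelled Qk-KO (genotype Qk-/-) carry 40HT and those of all cultures labelled WT carry EtOH, so treatment and genotype cannot be told apart there. In these bulk samples, fewer cells of a type and less RNA per cell cannot be told apart either. The labels do not say that the 3 cultures of a genotype came from separate animals, and p-values then measure only the spread between these libraries.

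Depth, as the sum of fitted counts in a library, ranged from 15048646 to 27666519 in callosum and from 38325833 to 48912999 in culture. The library columns hold the means of a fitted model, so the libraries of a genotype differ by depth alone and a level in CPM (a gene's share of its library, in the usual CPM unit) is 1 value per genotype, with no replicate spread of its own. Errors are therefore the standard errors (SE) that the authors deposited, and 95% intervals were computed from them with a normal multiplier. Qk itself was not lower in libraries labelled Qk-KO: in the authors' deposited table its log2 change was 0.32 ± 0.12 (SE) in callosum and 0.66 ± 0.14 in culture. Counts over the whole gene include exons outside a floxed segment, so this value checks neither the deletion nor the labels.

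The promoters of Hprt and Polr2a, the members with the largest and the smallest change in culture, are shown because they are the DNA next to the start of each transcript. Each runs from 250 bases before to 50 bases after the RefSeq start (GRCm38.p6, 300 bases). Capitals mark matches on either strand to the GC box GGGCGG (reverse CCGCCC) and to the TATA motif TATAAA (reverse TTTATA), which do not overlap one another here. The Hprt window lies at chrX:52987828-52988127 on the plus strand and the Polr2a window at chr11:69758584-69758883 on the minus strand. The RefSeq start of Hprt thus differs from its GENCODE start at 52988137, used below, and the whole window lies before the latter.
Hprt: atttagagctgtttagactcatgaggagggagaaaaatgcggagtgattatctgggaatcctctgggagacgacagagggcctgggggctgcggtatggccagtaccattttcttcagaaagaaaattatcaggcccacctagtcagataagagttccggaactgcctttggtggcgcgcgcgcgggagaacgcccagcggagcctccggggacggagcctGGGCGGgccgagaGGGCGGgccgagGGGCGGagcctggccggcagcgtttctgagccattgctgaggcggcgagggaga
Polr2a: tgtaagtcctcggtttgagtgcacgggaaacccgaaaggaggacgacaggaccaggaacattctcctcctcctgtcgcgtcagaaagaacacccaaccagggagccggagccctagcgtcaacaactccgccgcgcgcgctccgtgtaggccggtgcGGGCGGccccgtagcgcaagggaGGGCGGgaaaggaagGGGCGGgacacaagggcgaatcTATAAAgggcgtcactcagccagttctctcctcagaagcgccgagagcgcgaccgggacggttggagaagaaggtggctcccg
The Hprt window held 3 GC boxes and no TATA match, with a GC content of 61.0% and 22 CpG dinucleotides. The Polr2a window also held 3 GC boxes, had a GC content of 63.7% and 30 CpG dinucleotides, and had a TATA match that began 33 bases before the start. The Ppia window held 4 GC boxes and a TATA match 29 bases before the start, and the Tbp window held 1 GC box and no TATA match. Among 27025 mouse promoter windows of the same length, 35.9% held a GC box and 14.2% a TATA match. The CCAAT motif (reverse ATTGG), present in 37.9% of the windows, was in none of these 4. Of the 6 genes, 4 matched an entry in the promoter table, and Actb and Ywhaz did not. A match to these letters is a description of the window, and its absence says nothing of any factor.

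Quaking binds RNA at elements with the core ACTAAC or ACTAAT (written as DNA). The 3′ untranslated region of 1 annotated transcript per gene (GENCODE M21, the principal one) was therefore searched for those 6 letters on the transcript strand. Regions of other transcripts were not searched, so the counts below hold for that transcript only. Hprt had no match in 545 bases, and 15.7% of 1744 untranslated regions of similar length (within a factor of 1.25) had one. Actb (683 bases), Ppia (207 bases) and Ywhaz (1948 bases) had no match either. Of regions about as long as that of Ywhaz, 45.3% had one, and of those about as long as that of Polr2a 13.7% did. Polr2a had 1 match in 413 bases and Tbp had 7 matches in 11596 bases, among which 2 overlap. Of all 15124 untranslated regions searched, with a median length of 1015 bases, 31.7% had at least 1 match, and of 46 about as long as that of Tbp 95.7% did. The Polr2a match and the Tbp stretch that holds the 2 overlapping matches are shown as the sequences themselves. Capitals mark the core, in Tbp that of the first match only (ACTAAC at position 6343). The second match (ACTAAT at position 6347) begins inside it and runs on in small letters.
Polr2a: gaaataaagtttACTAATtttgaccaaaa
Tbp: ctgtgaggcggcACTAACtaatggcactta
Whether a match bears on a change between genotypes was not tested.

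In corpus callosum, the deposited changes of the 6 genes between genotypes were at most 1.19-fold. None of the 6 passed an adjusted p under 0.05 in the authors' deposited table, where 463 of 19935 tested genes did (2.32%, of which 2.09% were higher and 0.231% lower in libraries labelled Qk-KO). Actb and Polr2a had an unadjusted p under 0.05. The absolute log2 changes ran from 0.02 to 0.25 with a median of 0.12, and the median over all tested genes was also 0.12. Among tested genes with a mean of at least 1000, 91.0% changed less than Actb, 88.6% less than Polr2a and 70.0% less than Hprt. The shares were 63.6% for Ywhaz, 53.8% for Ppia and 11.7% for Tbp, whose own mean of 646 lies below that cutoff. The whole 95% interval lay within 1.5-fold for all 6 genes, and for 55.2% of the tested genes.

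Hprt in callosum had fitted counts of 2267, 2547, 1649 and 1997 in WT replicates 1 to 4 and of 1851, 1626, 1550 and 1286 in replicates 1 to 4 labelled Qk-KO. The counts of the genotypes overlap, and within a genotype they follow library depth alone. As a share of the library, Hprt stood at 92.1 CPM in WT and at 85.5 CPM in Qk-KO. Its log2 change was -0.13 ± 0.11 (SE; 95% interval -0.34 to 0.08, adjusted p = 0.977, authors' deposited table), and the interval allows a difference of up to 1.27-fold.

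Actb had the largest callosum change of the 6, at 0.25 ± 0.12 log2 units (95% interval 0.01 to 0.49) in the authors' deposited table, where the adjusted p is 0.578. The fitted values were 1621 CPM for WT and 1958 CPM for Qk-KO. Polr2a followed at 0.22 ± 0.11 log2 units (0.01 to 0.43, adjusted p = 0.543, authors' deposited table), with levels of 57.5 CPM in WT and 68.2 CPM in Qk-KO. Both intervals exclude 0 on their own, and neither gene passed once p-values were adjusted over all genes. Ppia stood at 502 and 480 CPM in WT and Qk-KO, Ywhaz at 795 and 748 CPM, and Tbp at 31.9 and 32.0 CPM. The log2 changes of these 3 genes were -0.09 ± 0.10, -0.11 ± 0.11 and -0.02 ± 0.11, where the authors' deposited table lists an adjusted p of 0.9997 for each. Tbp had the lowest outer bound, since its interval allows at most 1.18-fold.

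**Figure D1:**
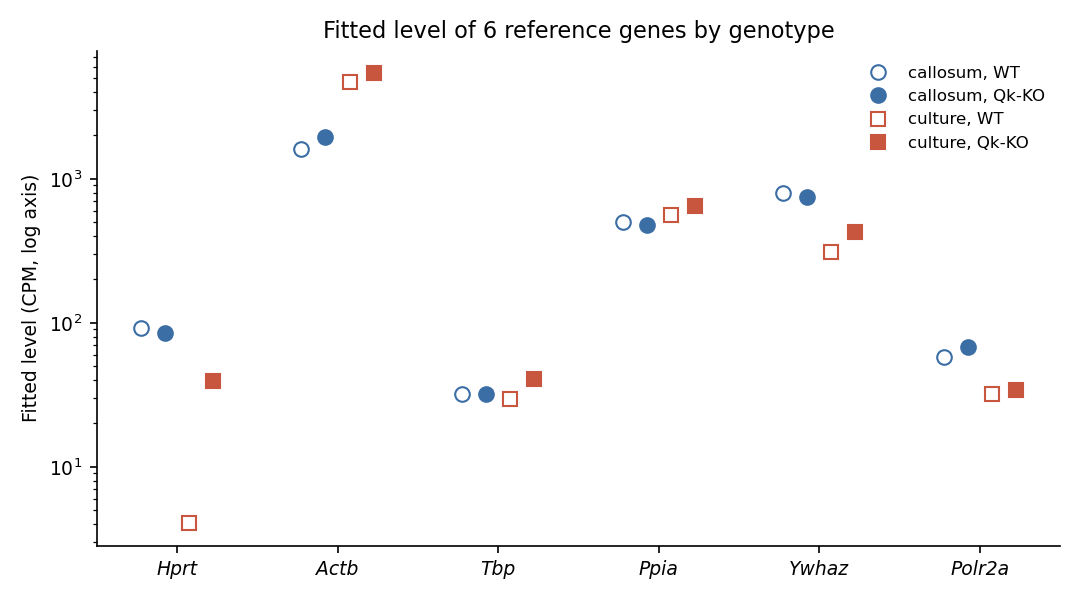
Fitted level of the 6 genes in CPM on a log axis, with open symbols for WT, filled symbols for Qk-KO, circles for callosum and squares for culture; each symbol is 1 fitted value per genotype and carries no replicate spread. Hprt in WT cultures, at 4.06 CPM, is far below its level of 39.4 CPM in cultures labelled Qk-KO, while the symbols of the other 5 genes lie close together within each system.

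In culture, Hprt differed strongly between genotypes and the other 5 genes by at most 1.30-fold. Hprt and Ywhaz passed an adjusted p under 0.05 in the authors' deposited table, 2 of 6, both higher in cultures labelled Qk-KO, where 5003 of 17503 tested genes passed (28.6%, of which 13.3% were higher and 15.2% lower). The share of members called is near that background and is read no further. With so many genes called in this system, size says more than the call: 99.7% of the tested genes had a smaller absolute change than Hprt, and by p in the authors' deposited table Hprt ranked 7 of the 17503. With a Student reference for the score (4 degrees of freedom) no gene of the table passed, and Hprt had an adjusted p of 0.057.

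Hprt had fitted counts of 199, 156 and 169 in WT cultures at passages 7, 12 and 13, and of 1910, 1761 and 1639 in cultures labelled Qk-KO at the same passages. Every fitted count labelled Qk-KO is far above every WT count, which the fitted model fixes for any gene with a change of this size. The level rose from 4.06 CPM in WT to 39.4 CPM in Qk-KO. The deposited log2 change was 3.20 ± 0.17 (SE; 95% interval 2.86 to 3.54, adjusted p = 1.48e-72, authors' deposited table), a 9.19-fold difference with an interval of 7.26-fold to 11.6-fold. The median absolute change over all tested genes in culture was 0.34 log2 units.

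Ywhaz was the second member called in culture. It rose from 309 to 424 CPM, a log2 change of 0.38 ± 0.12 (authors' deposited table, adjusted p = 0.00922), or 1.30-fold with an interval of 1.10-fold to 1.54-fold. Tbp had a change of the same size, 0.38 ± 0.21 (29.7 and 40.8 CPM), but with a larger error and the authors' deposited table lists an adjusted p of 0.162. Its interval runs from -0.02 to 0.79 log2 units and so allows up to 1.73-fold. Actb stood at 4673 CPM in WT and 5403 CPM in Qk-KO, with a log2 change of 0.13 ± 0.16 (authors' deposited table, adjusted p = 0.6). Ppia stood at 561 and 642 CPM, at 0.12 ± 0.18 log2 units (authors' deposited table, adjusted p = 0.697). Polr2a changed least, from 32.2 to 34.2 CPM, with a log2 change of 0.01 ± 0.18 (authors' deposited table, adjusted p = 0.979). Intervals stayed within 1.5-fold for 3 of the 6 genes, namely Actb, Ppia and Polr2a, against 27.1% of the tested genes.

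**Figure D2:**
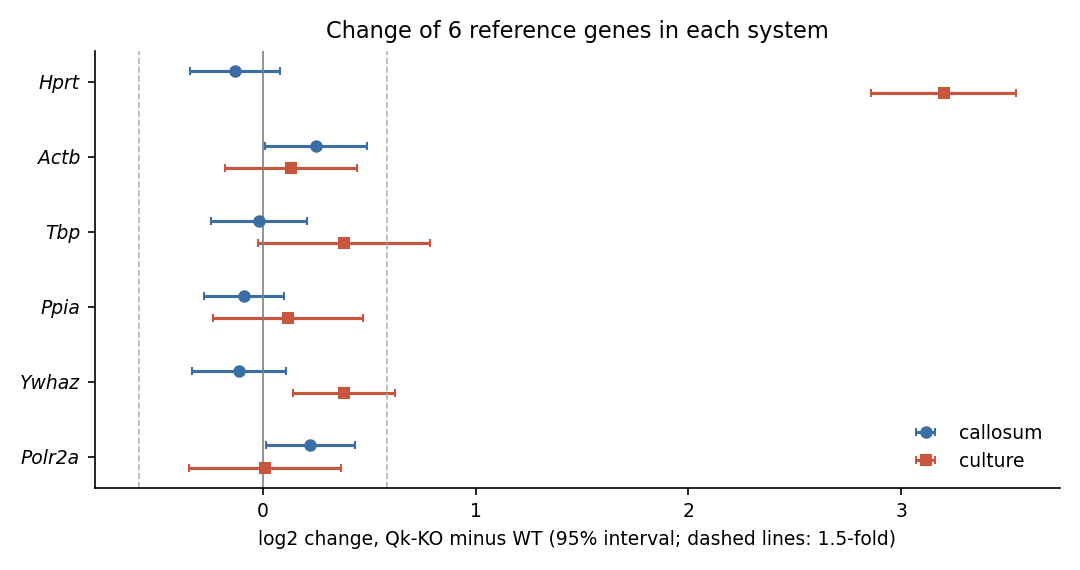
Deposited log2 change (Qk-KO minus WT) of the 6 genes with 95% intervals from the deposited standard errors, circles for callosum and squares for culture, and dashed lines at 1.5-fold. All 6 callosum intervals lie between the dashed lines, and in culture Hprt stands at 3.20 while the intervals of Tbp and Ywhaz reach 1.73-fold and 1.54-fold.

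Ratios between members show the same values without any library scaling, because both counts come from 1 library. Fitted Hprt counts were 2.89 times those of Tbp in WT callosum and 2.68 times in Qk-KO callosum. In culture the ratio was 0.137 in WT and 0.965 in Qk-KO. Against Polr2a, Hprt stood at 1.60 and 1.25 in callosum (WT and Qk-KO) and at 0.126 and 1.15 in culture. Of the 4 groups, the WT cultures stand apart on both ratios, and the cultures labelled Qk-KO lie nearer to both callosum groups. The 2 tables were normalized separately and come from different material, so levels across them are set side by side without a test.

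Of the 15 pairs that 6 genes form, the ratio of fitted counts changed between genotypes by 1.01-fold to 1.30-fold in callosum. The widest callosum pair, at 1.30-fold, was Hprt against Actb. In culture the 10 pairs without Hprt changed by 1.00-fold to 1.29-fold, and the 5 pairs with Hprt by 7.05-fold to 9.13-fold. The pairs without Hprt had a median change of 1.19-fold in each system.

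The change in culture minus the change in callosum was computed for each of 16601 genes tested in both tables with a z value on the deposited changes and errors, two-sided, with Benjamini-Hochberg adjustment over all of them; 3577 genes (21.5%) passed. Since Hprt and Ywhaz were chosen with both changes known, their values are descriptions. Hprt differed by 3.33 ± 0.20 log2 units (adjusted p = 8.85e-56), and its z value ranked 2 of all genes. Ywhaz differed by 0.49 ± 0.17 (adjusted p = 0.0189), from changes of -0.11 in callosum and 0.38 in culture in the authors' deposited table. That call was lost when changes were centred on the median of abundant genes in each system (adjusted p = 0.0507). The differences of Tbp (0.40 ± 0.24), Ppia (0.21 ± 0.20), Polr2a (-0.21 ± 0.21) and Actb (-0.12 ± 0.20) had adjusted p-values of 0.239, 0.545, 0.548 and 0.756.

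Levels were compared between genes per kilobase of annotated exon. In callosum the order was Actb, Ywhaz, Ppia, Hprt, Polr2a and Tbp in both genotypes, from 605 CPM per kb for Actb to 2.35 for Tbp in WT. Hprt stood at 71.4 CPM per kb in WT callosum, 8.77-fold above Polr2a. In WT cultures the order was Actb, Ppia, Ywhaz, Polr2a, Hprt and Tbp, with Polr2a at 4.56, Hprt at 3.15 and Tbp at 2.19 CPM per kb. In cultures labelled Qk-KO Hprt stood at 30.6 CPM per kb and moved above Polr2a at 4.84. Each gap between neighbours in these orders exceeded the 95% error of the 2 levels, the smallest being Ywhaz over Ppia in Qk-KO callosum (1.33-fold). With the length of 1 transcript in place of all exons, a choice made after the values were seen, Ywhaz fell below Ppia in callosum, at 0.564 times its level in WT. The place of Tbp rests on an annotated length of 13576 bases, most of it a long 3′ untranslated region.

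The genes lie on 5 chromosomes (GRCm38, GENCODE M21), and 46488 of the 46983 identifiers in the tables matched that annotation without their version. Hprt (ENSMUSG00000025630.8) spans chrX:52988137-53021659 on the plus strand and Actb (ENSMUSG00000029580.14) chr5:142903115-142906754 on the minus strand. Tbp (ENSMUSG00000014767.16) spans chr17:15499888-15528379 on the plus strand, and Ppia (ENSMUSG00000071866.11) chr11:6415443-6419817 on the plus strand. Ywhaz (ENSMUSG00000022285.16) spans chr15:36770770-36796929 and Polr2a (ENSMUSG00000005198.15) chr11:69733997-69758637, both on the minus strand. Tbp overlaps Pdcd2 on the opposite strand, and Pdcd2 is listed at a mean of 0 in both tables. The strand setting of the counting is not given in the sources used here, so reads of Tbp and Pdcd2 where they overlap cannot be told apart. The level of Tbp per kb and its place in the orders above are uncertain to that extent. Actb, Ppia and Ywhaz have many processed copies elsewhere in the mouse genome, and how reads shared with such copies were counted is not given in the sources used here, so their counts are uncertain to that extent.

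The spread between libraries of a genotype was solved from each deposited SE and the fitted means, as a coefficient of variation (CV). It is a model estimate, since the authors' tool draws each gene's dispersion towards a trend, and it does not use the difference between genotypes. In callosum the 6 genes had CVs of 9.30% (Ppia) to 12.0% (Actb), with Hprt at 10.3%, where the median of all tested genes was 16.9% and that of genes with a mean of at least 1000 was 10.8%. Among those abundant genes, between 30.6% (Ppia) and 63.1% (Actb) had a smaller callosum spread than the member. Tbp in callosum (mean 646) and Hprt in culture (mean 935) lie below that cutoff. They are thus set against genes more abundant than themselves. In culture the CVs ran from 10.3% (Ywhaz) to 17.3% (Tbp), with Hprt at 13.6%, Actb at 13.4%, and Ppia and Polr2a at 15.3%. The culture medians were 17.3% over all tested genes and 12.6% among abundant genes. Ywhaz, which was called in culture, had the narrowest spread of the 6 there, and 6.18% of the abundant genes had a smaller one. Tbp had the widest, with 89.5% of the abundant genes below it.

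**Figure D3:**
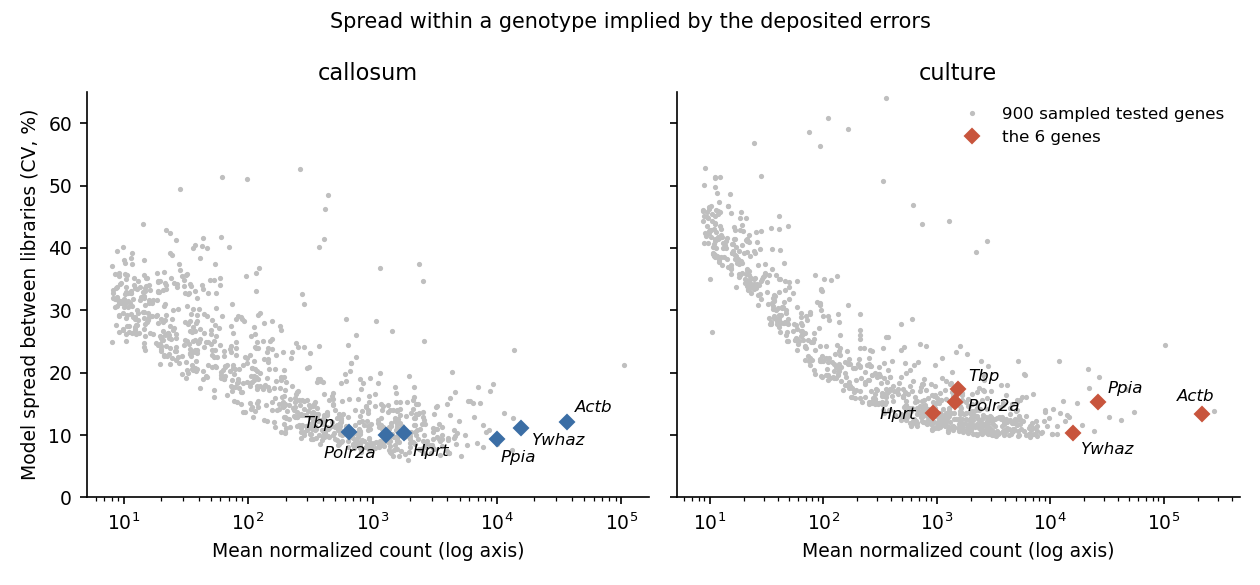
Coefficient of variation between libraries of a genotype, in percent, against the mean normalized count on a log axis, for the 6 genes (diamonds) and a random draw of tested genes (grey points) in callosum and culture. The members lie in the lower part of the cloud in callosum, at 9.30% to 12.0%. Among callosum genes with a mean of at least 1000, between 30.6% (Ppia) and 63.1% (Actb) had a smaller spread. In culture Tbp at 17.3% lies above 50.3% of all tested genes and above 89.5% of those with a mean of at least 1000.

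The genes beside Hprt on the X chromosome were examined next, the 3 nearest tested protein-coding genes on each side. In callosum none of them passed in the authors' deposited table, where, as given above, 2.32% of genes did. In culture Phf6, a chromatin-associated protein gene and the nearest upstream, stood 0.72 ± 0.20 log2 units higher in Qk-KO (authors' deposited table, adjusted p = 0.00288). Cxx1c, downstream, rose by 0.83 ± 0.17 (authors' deposited table, adjusted p = 9.76e-06). Gpc3, a glypican, Ccdc160, Fam122b and Mospd1 did not pass, with values of -0.01, -0.36, 0.35 and 0.08 in the authors' deposited table. The 2 neighbours that passed changed by far less than Hprt. Over the X chromosome in culture, 116 of 565 tested genes were called higher and 90 lower (36.5% in all). Of all tested genes in culture 28.6% were called, 13.3% higher and 15.2% lower, and the counts of neighbours and X-linked genes are not read further. By size of the rise, Hprt ranked 5 among the tested X-linked genes.

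Genes with a pattern near that of Hprt over the 2 systems were sought by distance in the plane of both log2 changes. The search covered 3846 genes tested in both tables with a mean of at least 1000 in each. Hprt itself, at a mean of 935 in culture, lies below that cutoff, and genes as low as it were not searched. Napb, an adaptor of vesicle fusion, was nearest at a distance of 0.09 log2 units, with -0.18 ± 0.13 in callosum and 3.27 ± 0.20 in culture in the authors' deposited table. Celsr3, an adhesion receptor of developing axons, was at 0.13, with -0.0045 ± 0.13 and 3.18 ± 0.16 in the authors' deposited table. Chrnb2, a nicotinic acetylcholine receptor subunit, was at 0.23, with -0.34 ± 0.19 and 3.11 ± 0.17 in the authors' deposited table.

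In purine salvage, the pathway of Hprt, 12 of 13 listed genes were tested in each system. None passed in callosum, where 2.32% of all tested genes did, and that count is not read further. In culture 3 were called higher, namely Hprt, Gda and Aprt, and 3 lower, where 28.6% of all tested genes were called. Aprt, the salvage enzyme for adenine, rose by 0.38 ± 0.15 log2 units (adjusted p = 0.0422) in the authors' deposited table, with fitted levels computed here of 40.8 and 55.8 CPM. Gda, which deaminates guanine, rose by 1.65 ± 0.56 (adjusted p = 0.0147) in the authors' deposited table, with low computed levels of 0.199 and 0.658 CPM. Adk, adenosine kinase, fell by 0.90 ± 0.17, Pnp, purine nucleoside phosphorylase, by 0.61 ± 0.16, and the nucleoside transporter Slc29a1 by 0.56 ± 0.20 in the authors' deposited table. Without Hprt, the median change of the tested list was -0.02 in culture, beside a median of 0.01 over all tested genes.

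Of 13 tested genes of de novo purine synthesis, 1 was called in callosum and 5 in culture, where 2.32% and 28.6% of all tested genes were called. Neither count is read further. In callosum Adssl1, an adenylosuccinate synthetase, rose by 0.63 ± 0.14 (authors' deposited table, adjusted p = 0.00067). In culture the guanine nucleotide enzymes Impdh1 (1.22 ± 0.20), Gmps (0.46 ± 0.15) and Impdh2 (0.38 ± 0.13) rose in the authors' deposited table. Pfas fell by 0.67 ± 0.15 and Paics by 0.53 ± 0.18 in the same authors' deposited table, and both encode enzymes of the steps that lead to inosine monophosphate. Atic, the listed gene of highest mean that did not pass, stood at 0.30 ± 0.15 (authors' deposited table, adjusted p = 0.119).

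Relatives of the other 5 members were counted in the same way, against the same shares of 2.32% in callosum and 28.6% in culture. Of 7 tested 14-3-3 genes in callosum, Ywhaq rose by 0.40 ± 0.11 (authors' deposited table, adjusted p = 0.0203) and no other was called. In culture Ywhah (0.74 ± 0.12), Ywhag (0.65 ± 0.12) and Ywhaz were called higher and none lower in the authors' deposited table, while Ywhae, the most abundant that was not called, stood at -0.28 ± 0.15 (adjusted p = 0.173). With genes under a mean of 100 left out of the adjustment, 5 of the 7 passed.

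Of the 12 RNA polymerase II subunits, none was called in callosum. In culture Polr2d (0.61 ± 0.14) and Polr2b (0.33 ± 0.12) were called higher in the authors' deposited table and no other subunit was called. Their number, 2 of 12, is not read further beside the 28.6% of all tested genes. Polr2a itself stood at 0.01 ± 0.18, and its difference from these subunits was not tested. Among 16 tested TFIID subunits and TBP relatives, again none was called in callosum. In culture Taf13 fell by 1.44 ± 0.15 and Taf9b by 0.86 ± 0.12, whereas Tbpl1, a TBP-like factor, rose by 0.74 ± 0.15 and Taf3 by 0.58 ± 0.24 in the authors' deposited table. Of 15 cyclophilin-family genes, Ppil4 alone was called, in culture, at 0.66 ± 0.15 in the authors' deposited table. No actin isoform was called in either system. Actg1, the other cytoplasmic actin, stood at 0.03 ± 0.14 in callosum and 0.14 ± 0.18 in culture in the authors' deposited table.

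Another 30 genes in common use as references were listed for comparison, and all were tested in both systems. In callosum 2 of 30 were called, both higher, where 2.09% of all tested genes were. Gusb, the lysosomal beta-glucuronidase, rose by 0.94 ± 0.13 (adjusted p = 7.84e-10) in the authors' deposited table, with computed levels of 14.3 and 27.7 CPM. B2m, the light chain of class I histocompatibility antigens, rose by 0.59 ± 0.15 (adjusted p = 0.00379) in the authors' deposited table, with computed levels of 56.2 and 86.1 CPM. The other 28 all had intervals within 1.5-fold.

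In culture 3 of the 30 were called higher and 8 lower, where 13.3% of all tested genes were called higher and 15.2% lower, so the number called is not read as particular to reference genes. Tubb5, a beta-tubulin, rose by 0.70 ± 0.12, the ubiquitin gene Ubb by 0.59 ± 0.14 and the chaperone Hsp90ab1 by 0.40 ± 0.12 in the authors' deposited table. Among the falls were those of B2m (-0.81 ± 0.26), Ctnnb1 (-0.69 ± 0.11), Alas1 (-0.61 ± 0.13), Cyc1 (-0.58 ± 0.19), Canx (-0.58 ± 0.12), Tfrc (-0.54 ± 0.12) and Sdha (-0.37 ± 0.12) in the authors' deposited table. B2m thus had changes of opposite sign in tissue and culture. Intervals lay within 1.5-fold for 15 of the 30. The outer bound was lowest for the ribosomal protein genes Rplp0 (0.04 ± 0.12) and Rpl13a (0.03 ± 0.13), at 1.21-fold each, from the values of the authors' deposited table. Gapdh, a glycolytic enzyme gene in wide use as a reference, stood at -0.15 ± 0.14 (bound 1.34-fold) in culture and -0.06 ± 0.11 (bound 1.21-fold) in callosum in the authors' deposited table. None of the 30 had a change near that of Hprt in culture, since they ranged from -0.81 to 0.70 log2 units.

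**Figure D4:**
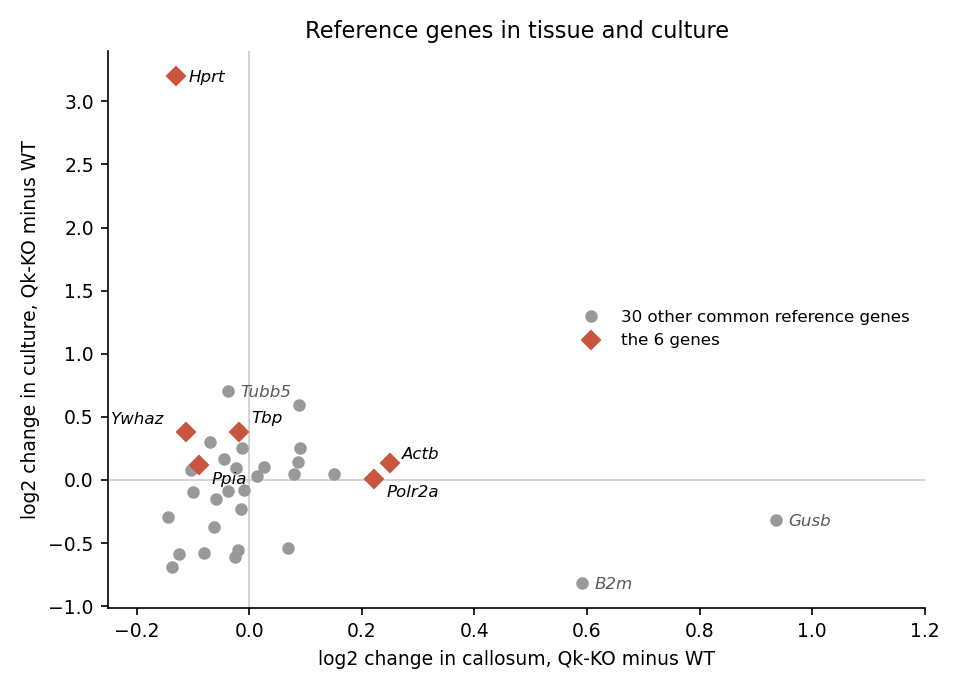
Deposited log2 change (Qk-KO minus WT) in culture against that in callosum, for the 6 genes (diamonds) and 30 other common reference genes (grey circles), 1 point per gene. Hprt stands alone at 3.20 in culture, and Gusb and B2m are set apart by their callosum changes of 0.94 and 0.59.

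To show how far the choice of a reference moves other genes, every deposited change was also expressed minus the change of each member, as a ratio to that gene would be. This subtracts 1 constant from all genes alike, so the counts follow from the member's own change and describe the size of the shift, with nothing new about the other genes. With the authors' size factors, 952 of 17503 tested genes in culture were at least 2-fold higher and 1314 at least 2-fold lower in Qk-KO. Against Hprt, 6 were higher and 17401 lower (99.4%), and 2312 of the 5003 called genes changed sign. Against Polr2a the counts were 928 and 1330, against Ppia 736 and 1624, and against Actb 710 and 1676, with no called gene turned. Against Tbp they were 421 and 2694 with 135 called genes turned, and against Ywhaz 424 and 2682 with 129 turned.

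The same arithmetic was done with means of the members. Against the mean of all 6 changes, 234 genes were at least 2-fold higher and 5006 lower in culture, and 1109 called genes changed sign. Against the mean of the 5 without Hprt they were 615 and 1913, with none turned. In callosum no called gene turned under any of these references. The balance did move there, from 210 higher and 45 lower with the size factors to 303 and 26 against Hprt, 135 and 129 against Polr2a, and 124 and 145 against Actb. That balance depends on the threshold. At 1.5-fold the counts were 356 and 1093 against Polr2a and 332 and 1265 against Actb, and among genes with a mean of at least 100 they were 60 and 28, and 53 and 31, at 2-fold.

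**Figure D5:**
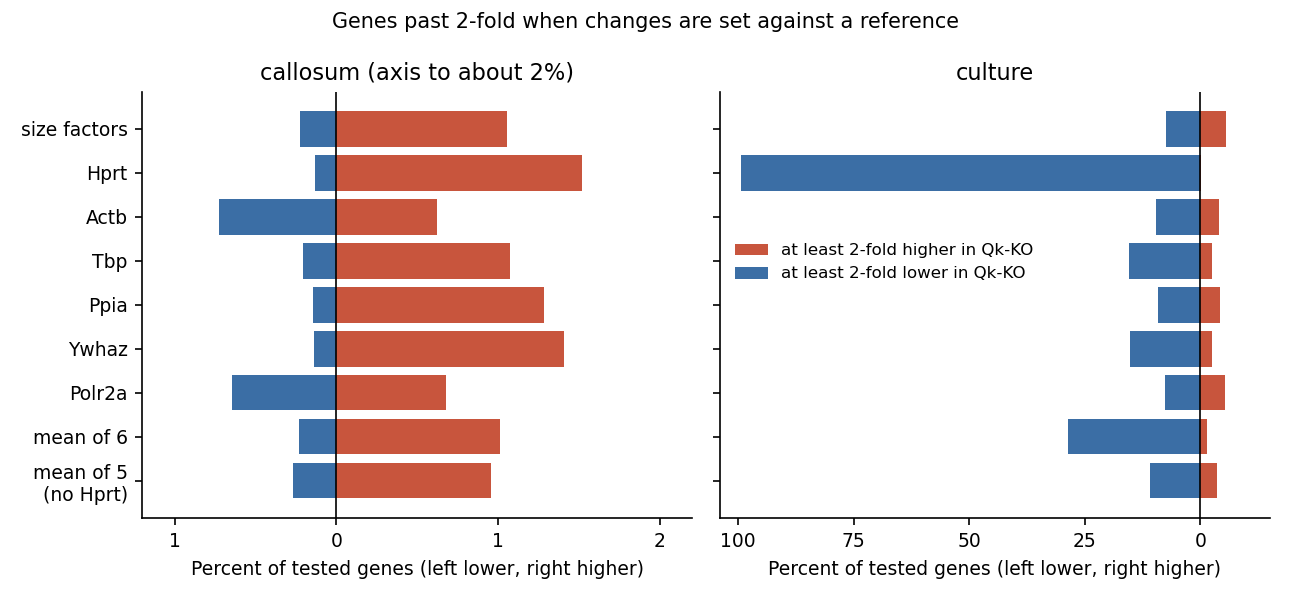
Percent of tested genes at least 2-fold lower (left of 0) or higher (right of 0) in Qk-KO when deposited changes are set against the authors' size factors, each of the 6 genes, or a mean of them; the 2 panels have different horizontal scales. Against Hprt the culture bar reaches 99.4% lower, and in callosum the lower side outnumbers the higher at this 2-fold threshold against Actb, with 145 against 124 genes.

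For Qk and genes of glial identity the effect of the reference was as follows in culture. Qk had a log2 change of 0.66 ± 0.14 in the authors' deposited table, of 0.27 to 0.65 against the 5 members other than Hprt, and of -2.54 against Hprt, where it reads as 5.83-fold lower. Mog, a myelin surface glycoprotein gene, stood at 1.28 ± 0.52 in the authors' deposited table and at -1.92 against Hprt. Mbp, myelin basic protein, moved from -0.28 ± 0.63 in the authors' deposited table to -3.48. Gfap, the astrocyte filament gene, moved from -3.37 ± 0.29 in the authors' deposited table to -6.57. In callosum the same genes kept their sign under every member, with the exception of Mbp. It stood at 0.14 ± 0.16 in the authors' deposited table, at -0.11 against Actb and at -0.08 against Polr2a. Qk ranged from 0.08 against Actb to 0.45 against Hprt there.

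Markers of other cell types moved with the same contrasts, and their part in the changes of the 6 genes was not tested. The counts below stand beside the 28.6% of genes called in culture and the 2.32% called in callosum. In culture, 6 of 8 tested neuron markers were called higher and none lower, with a summed level of 746 CPM in WT and 1743 CPM in Qk-KO. Of 8 astrocyte markers, 6 were called lower and none higher (13144 and 4024 CPM), and of 8 cell cycle markers 6 were called higher (117 and 192 CPM). Of 10 oligodendrocyte markers, 4 were called higher and 1 lower (3491 and 3354 CPM), so defining markers of the labelled cell type were detected in both groups, beside astrocyte markers of higher summed level. With p adjusted over every gene with a p, 2 of these 10 passed in place of 5. Microglia markers summed to 2.45 and 0.786 CPM in culture, with 2 of 9 listed at 0. In callosum, 6 of 9 microglia markers were called higher (322 and 682 CPM), and neuron markers were not called (6541 and 6104 CPM). Callosum astrocyte markers (4726 and 5874 CPM, 2 called higher) and oligodendrocyte markers (7167 and 7581 CPM, 3 called higher) were present in both genotypes.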

How the data were processed

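RNA-seq values came from 2 deposited tables, 1 for corpus callosum (4 libraries per genotype) and 1 for cultured oligodendrocytes (3 per genotype). The tools used were TopHat2 2.0.14, DESeq2, featureCounts and FastQC, with genome build mm10 (GRCm38), per the submitters' processing notes. Which annotation, strand setting and model were used is not given in the sources used here. The library columns hold deposited log2 values that were found, within 1e-09, to be log2 of a fitted mean plus 1, with genotype as the only term. Per the file headers, the baseline mean is a normalized count signal. The log2 fold change, its SE, a score (change over SE), the p-value and the adjusted p-value are deposited by the authors; the direction in the tables is WT over Qk-KO, and values were turned to Qk-KO minus WT. The authors' DESeq2 calls at an adjusted p under 0.05 were used, because a count test or limma, planned for columns with replicate spread, cannot be run on fitted means. No other column of per-sample values was left unused.

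Fitted counts were rebuilt as 2 to the power of the value, minus 1; CPM is their share of the library total. The spread (CV) was solved from the SE and fitted means of a negative binomial model with 2 groups. Levels per kb used exon lengths of GENCODE M21. Promoter sequences are RefSeq's. The scripts used Python 3.11.15, pandas 2.3.3 and scipy 1.17.1, and were tested on simulated data. The 6 genes and all gene lists were chosen with earlier results of these data known. The text names the 6 genes, up to 4 called genes per list and system with the smallest p and the most abundant uncalled gene, all genes of small counts, the 3 genes nearest to Hprt, and Qk, Mbp, Mog and Gfap; the other reference genes beyond these were named after their values were seen. Alternatives changed the reference distribution of the score, the genes adjusted over, the scaling, the interval and the fold threshold. Some genes that this rule covers are not reported here.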

Additional observations from a re-analysis of the deposited data

Results flagged for a closer look

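Hprt was singled out because its change differed between systems. The culture change minus the callosum change was 3.33 log2 units (adjusted p = 8.85e-56 over 16601 genes, two-sided z test). The changes were -0.13 ± 0.11 in callosum and 3.20 ± 0.17 in culture in the authors' deposited table. Hprt and Ywhaz were chosen with both changes known, so their p-values here are descriptions. The z test takes a normal reference, and no Student reference was run for the difference.

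Ywhaz was singled out in the same way, at 0.492 log2 units (adjusted p = 0.0189), with -0.11 ± 0.11 in callosum and 0.38 ± 0.12 in culture in the authors' deposited table. No library could be examined for outlying values, since the columns carry no replicate spread.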

How the results depend on the processing

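No paired analysis was possible because the library columns are fitted means without replicate spread, and for the same reason neither a replicate block nor leaving out a replicate was run. With a Student reference for the score (4 degrees of freedom in culture, 6 in callosum), 0 of the 6 genes passed in culture instead of 2, beside 0 of all genes in culture and 8 in callosum; the adjusted p of Hprt was then 0.057 and that of Ywhaz 0.179. Adjusting over every gene with a p, or over genes with a mean of at least 100, kept the counts of 0 and 2. Scaling to library totals shifted every change by 0.02 in callosum and 0.08 in culture, to totals without mitochondrial genes by 0.02 and 0.11, and centring by 0.03 and -0.04, none of them more than the SE of any of the 6. With Student intervals 2 genes in culture stayed within 1.5-fold, instead of 3. After centring, 1 of the 6 genes differed between systems instead of 2. Against the mean of the 5 genes without Hprt in callosum, 78.0% of genes past 2-fold were higher; the share was 57.8% at 1.5-fold and 90.6% among genes with a mean of at least 100. Spreads moved by less than 1.5 times when the SE was corrected for the prior on fold changes. Of the main values 61 stayed within their limits and 4 moved, and of the others 72 stayed and 40 moved. No change of a called member turned sign. Values near 0 did: Tbp in callosum went from -0.02 to 0.0045 scaled to library totals and 0.012 after centring, and Polr2a in culture from 0.01 to -0.03 after centring. The level of Ywhaz per length over that of Ppia in callosum fell from 1.35 to 0.564 in WT and from 1.33 to 0.555 in Qk-KO with the length of 1 transcript.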
